A study of Mus musculus with 8 samples.

Results

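The GATA factors are 6 transcription factors that bind the sequence from which they take their name through a pair of zinc fingers, and the Friend of GATA (FOG) proteins Zfpm1 and Zfpm2 are cofactors that dock on the amino-terminal finger of a GATA factor. The RNA of all 8 genes was followed in bulk RNA-seq libraries from 4 mouse models of endometrial cancer (EC), with 2 libraries per model. The 8 symbols were looked up among the 24419 gene symbols of the count table and all 8 were found. Gata4 had been chosen by its measured counts, high in the TPMPik3ca and TPMPik3r1 libraries and 0 in the TPM libraries, so its levels across those models are given as a description with no test, and the other members came in as its relatives and cofactors.

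All models started from uterine organoids of female CAG-Cas9-EGFP mice aged 8 to 10 weeks, which express Cas9 and EGFP from the broadly active CAG promoter. The organoids were edited in culture and injected into the left uterus of female BALB/cA-nu nude mice aged 8 weeks. The edits of TPM include a guide RNA against Trp53 and Myc overexpression. TPMPik3ca, called TPMCa here, also carries a Pik3ca cDNA with the E545K change, and TPMPik3r1, called TPMR1 here, also carries a guide RNA against Pik3r1. The edits of TPK include a guide RNA against Trp53 and leave out the Myc overexpression. Tumor tissue was taken about 2 months after transplantation per the methods, whereas the labels name the material EC tumor organoids of nude mice. On the account of the methods a library is bulk RNA of a tumor with the host cells it holds, and a nude host lacks a thymus. The libraries of a model are labelled as separate samples, and the p-values measure the spread between these samples.

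In background terms, the family splits by tissue. GATA1, GATA2 and GATA3 are best known from blood, with GATA1 driving red cell, megakaryocyte and mast cell genes, GATA2 acting in blood stem cells, endothelium and the progesterone response of the uterus, and GATA3 acting in T cells and in breast, skin and urinary epithelium. GATA4, GATA5 and GATA6 are best known from heart, gut, gonad and adrenal tissue, where GATA4 and GATA6 act with NR5A1 on genes of steroid synthesis. FOG1 (Zfpm1) works with GATA1 in blood and FOG2 (Zfpm2) with GATA4 in heart and gonad, and both bring in the CtBP and NuRD corepressors.

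Both fingers of a GATA factor are built alike, and their coding sequences are shown because reads from such a stretch could fall on more than 1 member. The amino-terminal finger, which holds the FOG contact, is given for Gata3 and Gata4, the members with opposite levels across the models, and the carboxy-terminal finger, which holds most of the DNA contact, for the same pair and for Gata1. Each runs over 75 bases of 1 exon in GRCm38, is written 5′ to 3′ on the coding strand, and has the 4 cysteine codons that hold the zinc in capitals.
Gata3 amino-terminal finger (chr2:9868821-9868895, minus strand): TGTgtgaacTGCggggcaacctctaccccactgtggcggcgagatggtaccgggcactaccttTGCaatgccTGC
Gata4 amino-terminal finger (chr14:63204649-63204723, minus strand): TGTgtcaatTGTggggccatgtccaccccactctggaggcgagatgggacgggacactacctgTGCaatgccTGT
Gata1 carboxy-terminal finger (chrX:7960607-7960681, minus strand): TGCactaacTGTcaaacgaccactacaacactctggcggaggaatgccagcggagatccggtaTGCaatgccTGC
Gata3 carboxy-terminal finger (chr2:9863119-9863193, minus strand): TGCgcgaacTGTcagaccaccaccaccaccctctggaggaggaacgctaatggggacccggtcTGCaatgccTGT
Gata4 carboxy-terminal finger (chr14:63203683-63203757, minus strand): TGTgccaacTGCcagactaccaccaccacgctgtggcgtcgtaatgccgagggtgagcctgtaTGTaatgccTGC
Across the 6 GATA genes, any 2 amino-terminal fingers shared 72.0 to 86.7% of their bases and any 2 carboxy-terminal fingers 68.0 to 81.3%. The longest run of identical bases at the same place in any such pair was 21 bases, between the amino-terminal fingers of Gata1 and Gata2, of Gata1 and Gata4 and of Gata2 and Gata4. The study's methods give paired-end reads, each longer than such a finger. How the counting treated reads that match more than 1 place is not given in the sources used here.

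The 8 genes lie on 7 chromosomes of GRCm38, with Gata3 (chr2:9857078-9890034) and Gata5 (chr2:180325133-180334699) on the same chromosome. Gata4 covers chr14:63198922-63271692 on the minus strand, Gata6 chr18:11052064-11085635 on the plus strand and Gata2 chr6:88193891-88207032 on the plus strand. Gata1 (chrX:7959260-7978071, minus strand), Zfpm1 (chr8:122282141-122337251, plus strand) and Zfpm2 (chr15:40655035-41104592, plus strand) complete the set. Exons of other annotated genes overlap those of 3 members, and the protocol does not state whether counting used strand. Gata5os overlaps Gata5 on the opposite strand over 258 exon bases and had 0 to 3 counts per library, and 9230102O04Rik overlaps Gata3 on the same strand over 77 bases and had 0 to 7 counts. 1010001N08Rik overlaps Gata6 on the opposite strand over 93 bases and had 79 counts in TPMR1 replicate 2 and 0 to 21 elsewhere, so its highest library was also that of Gata6.

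Total counts per library lay between 15748396 and 26943611, and 3 counts corresponded to 0.116 to 0.198 CPM, the counts of a gene scaled to a common library size, a floor that covers counting error only. All 8 members passed the filter on low counts, as did 15875 genes in all. Gata1 was above the floor in only 3 libraries and Gata5 in 4, so both passed through the libraries where they were high. The replicates of TPMR1 stood farther apart than those of the other models: 2701 genes differed by more than 4-fold between them, against 749 in TPM, 972 in TPK and 1293 in TPMCa. The labelled tissue was checked against epithelial markers (Epcam, Cdh1 and 4 keratins). Their summed level was 2941 to 5498 CPM in TPM and 3236 to 4963 CPM in TPK, but 23.7 to 73.3 CPM in TPMCa and 6.47 to 27.4 CPM in TPMR1, so epithelial RNA was scarce in TPMCa and TPMR1. In bulk tissue, fewer cells of a type and less RNA per cell cannot be told apart.

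**Figure D1:**
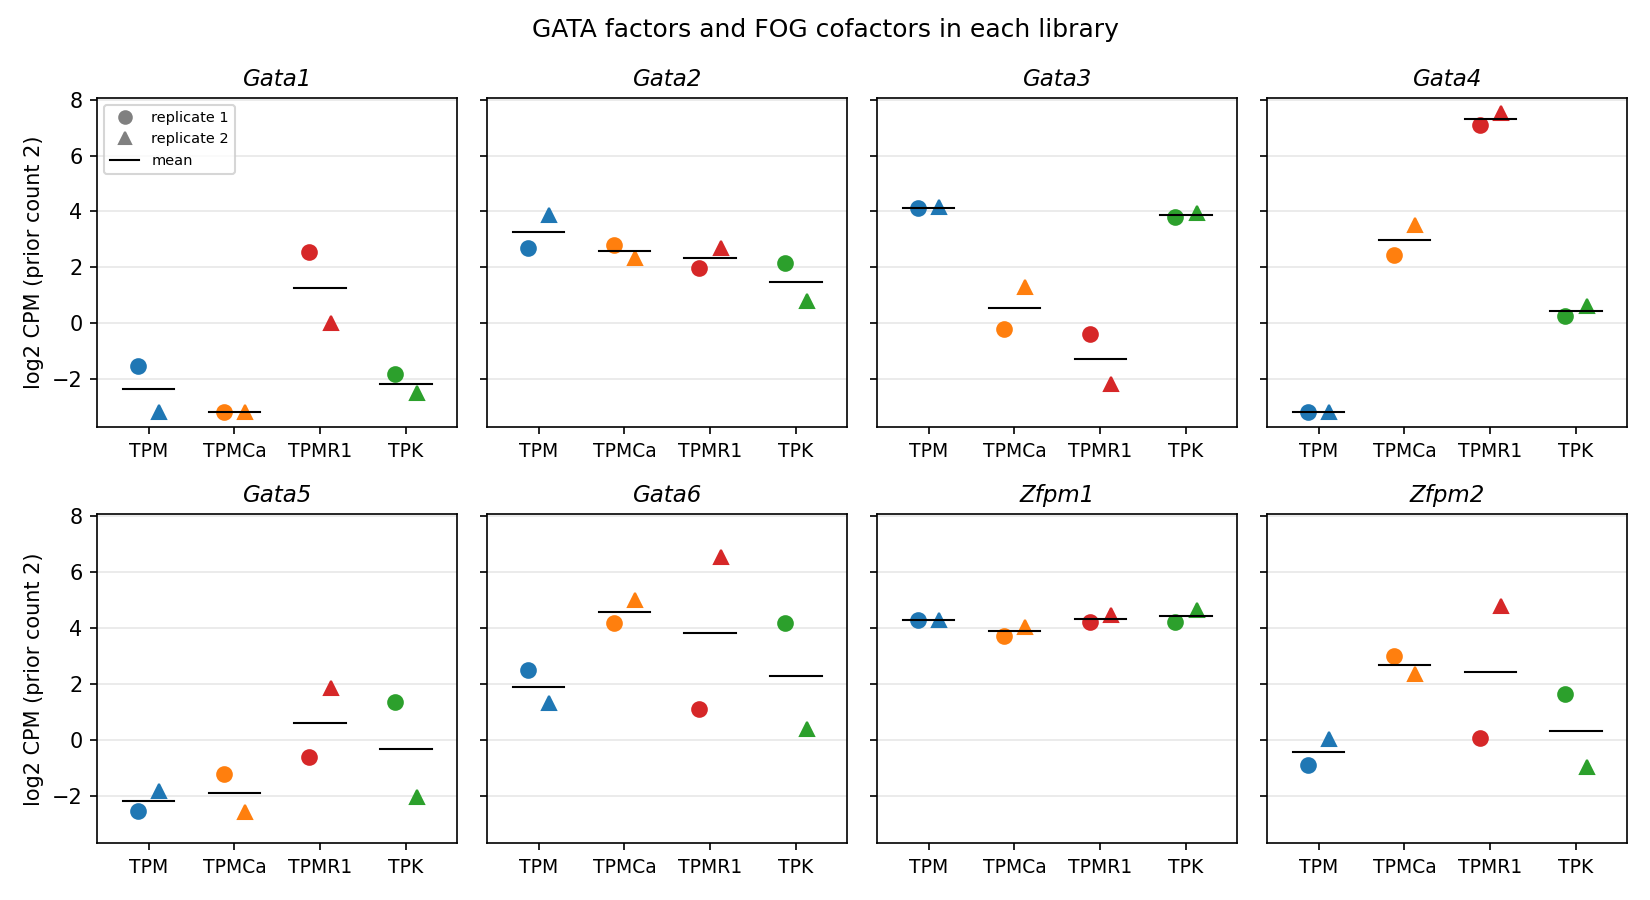
Level of each member as log2 CPM with a prior count of 2, by model, with 1 point per library and a line at the mean of the 2 libraries of a model. Gata3 is high in TPM and TPK and low in TPMCa and TPMR1, Gata4 is at the bottom of the axis in TPM and at the top in TPMR1, and Gata6 and Zfpm2 differ widely between the replicates of TPMR1.

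Gata4, a regulator of heart and gonad development, had 0 counts in both TPM libraries. It had 19 and 22 counts in TPK (1.09 and 1.45 CPM), 84 and 203 counts in TPMCa (5.32 and 11.3 CPM), and 3543 and 3297 counts in TPMR1 (137.2 and 183.3 CPM). The models were thus ordered TPM, TPK, TPMCa and TPMR1, and no library of one overlapped the next. Against 3 counts in each TPM library, Gata4 was at least 7.20-fold higher in TPK and at least 47.2-fold higher in TPMCa. The mean of TPMR1 was 19.3 times that of TPMCa and 126.3 times that of TPK. Its replicates were 1.34-fold apart in TPMR1, where 2701 of the 15875 tested genes were more than 4-fold apart.

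Gata3, which sets the identity of several epithelia, had the opposite order. It stood at 17.2 and 17.6 CPM in TPM and at 13.8 and 15.2 CPM in TPK. In TPMCa it stood at 0.760 and 2.34 CPM and in TPMR1 at 0.658 and 0.111 CPM, the last being 2 counts and under the floor. The lowest library of TPM and TPK was 5.89 times the highest of TPMCa and TPMR1. The mean of TPM, 17.4 ± 0.283 CPM (SD, n = 2), was 11.3 times that of TPMCa and 45.3 times that of TPMR1.

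Gata6, a relative of Gata4 in gut, heart and adrenal, was read in every library. It was at 5.48 and 2.35 CPM in TPM, at 17.7 and 31.6 CPM in TPMCa, at 2.01 and 92.9 CPM in TPMR1, and at 18.1 and 1.19 CPM in TPK. The 2 TPMR1 libraries differed 46.2-fold and the 2 TPK libraries 15.2-fold. TPMCa was above TPM in both libraries, with a mean 6.31 times as high, while the range of TPMR1 took in all of TPM and TPMCa. Zfpm2, the cofactor of GATA4 in heart and gonad, followed the same libraries. It was at 0.421 and 0.915 CPM in TPM, at 7.79 and 5.01 CPM in TPMCa, at 0.929 and 27.3 CPM in TPMR1, and at 2.97 and 0.396 CPM in TPK. TPMR1 replicate 2 was thus the highest library for both genes and TPMR1 replicate 1 was near the TPM libraries for both.

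Zfpm1, the cofactor of GATA1, was the steadiest member. It was at 19.3 CPM in both TPM libraries, at 13.1 and 16.4 CPM in TPMCa, at 18.2 and 21.7 CPM in TPMR1, and at 18.2 and 24.7 CPM in TPK. Gata2, known from blood stem cells, endothelium and the uterus, was also read everywhere, at 6.32 and 14.5 CPM in TPM, 6.90 and 4.95 CPM in TPMCa, 3.83 and 6.34 CPM in TPMR1 and 4.40 and 1.65 CPM in TPK. For Zfpm1 the TPMCa libraries were the 2 lowest, while the ranges of the other models overlapped. For Gata2 each model overlapped the next in the order TPM, TPMCa, TPMR1 and TPK, and TPK lay below TPM without overlap.

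Gata1, the red cell and megakaryocyte factor, had 147 and 16 counts in TPMR1 (5.69 and 0.889 CPM). TPMCa had no count of it, TPM had 4 and 0 counts and TPK 3 and 1, so TPMR1 was the only model with both libraries above the floor. Against 3 counts in each TPMCa library, its mean in TPMR1 was at least 18.4-fold higher. Gata5, known from heart and gut, was at 0.0602 and 0.172 CPM in TPM, 0.317 and 0.0557 CPM in TPMCa, 0.542 and 3.45 CPM in TPMR1 and 2.46 and 0.132 CPM in TPK. Its 2 highest libraries, TPMR1 replicate 2 and TPK replicate 1, were also the higher replicates of their models for Gata6 and Zfpm2.

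To compare members with each other, CPM was divided by the exon length of each gene in kilobases. On this scale the GATA factors summed to 4.76 to 9.27 CPM per kb in the 6 libraries of TPM, TPMCa and TPK, and to 38.8 and 63.8 CPM per kb in TPMR1. Gata3 was the leading GATA factor in TPM, with 67.0 and 58.9% of the sum, and in TPK, with 42.5 and 80.5%. Gata6 led in TPMCa with 48.2 and 52.4%, ahead of Gata4 with 24.1 and 31.2%. Gata4 led in TPMR1 with 90.5 and 73.5%, and Gata6 made up another 22.4% of TPMR1 replicate 2 but 0.797% of replicate 1. Each model thus had the same leading factor in both of its libraries. Of the FOG pair, Zfpm1 held 68.4 to 99.4% of the summed CPM per kb, its lowest share being in TPMR1 replicate 2, where Zfpm2 took 31.6%.

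**Figure D2:**
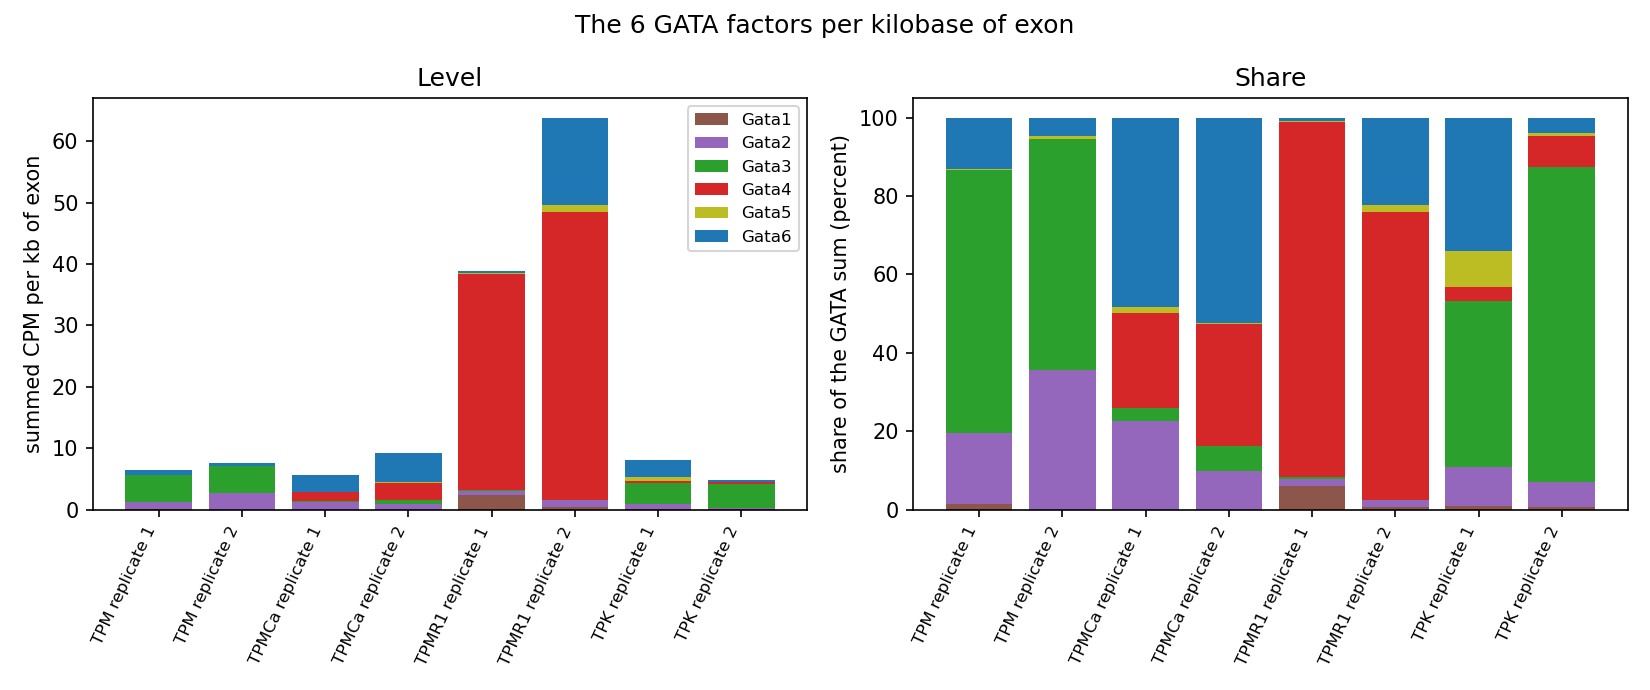
The 6 GATA factors in each library, left as stacked CPM per kilobase of exon and right as percent of that sum, each color being 1 gene. The TPMR1 bars reach 38.8 and 63.8 CPM per kb and are mostly Gata4, while Gata3 fills most of the TPM bars.

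The first comparison asked how the tumors with an added PI3K change (the mean of TPMCa and TPMR1) differed from TPM. Gata3 fell, by 4.46 on the log2 scale (SE 0.70, edgeR quasi-likelihood adjusted p = 0.0122), and all 4 libraries lay below both TPM libraries. It was the only one of the 7 other members to pass, against 7.44% of all tested genes called lower and 1.45% called higher. Zfpm2 differed by 3.81 (SE 1.56) with all 4 libraries above TPM, the nearest pair at 0.929 and 0.915 CPM, but missed the threshold (adjusted p = 0.191 from edgeR). With DESeq2 its adjusted p was 0.0134, where 18.4% of genes were called, and without TPMR1 replicate 1 its edgeR adjusted p was 0.0457. Gata6 differed by 3.13 (SE 1.67, edgeR adjusted p = 0.302) and Gata5 by 2.32 (SE 1.60, edgeR adjusted p = 0.414), both with overlapping libraries. At the thresholds named in the study's methods, an unadjusted DESeq2 p under 0.05 with a log2 fold change beyond 1, 3 members (Gata3, Gata6 and Zfpm2) and 19.1% of genes passed. Groups did not overlap for 2 of the 7 members, Gata3 and Zfpm2, and for 34.9% of all tested genes. Zfpm1 differed by -0.17 (SE 0.29) and Gata2 by -0.92 (SE 0.59), neither past the threshold. Gata1, fitted at 0.27 (SE 0.65), is among the 7 but passed the filter only through TPMR1, so it had no independent test here. The value of Gata1 also depends on the fit since TPMCa had no count of it. The call on Gata3 was lost when either TPM library was left out, at adjusted p = 0.0704 without replicate 1 and 0.0563 without replicate 2 from edgeR, with the size of the difference unchanged at -4.45 in both.

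The second comparison set TPK against TPM, which share Trp53 editing and differ in Myc overexpression among other edits. No member passed the edgeR test, nor did any gene (0% called higher and 0% called lower of 15875 tested, with 1138 genes at an unadjusted p under 0.05). DESeq2 called 1.57% of genes and none of the 7 members. Gata2 was the only member at an unadjusted p under 0.05, lower in TPK by 1.78 on the log2 scale (SE 0.72, adjusted p = 0.693 from edgeR). It was also the only member past the study's thresholds, as were 6.28% of genes. Groups did not overlap for Gata2 and Gata3, 2 of the 7 members, against 47.9% of all genes. Gata3 differed by -0.26 (SE 0.79) between these models, and for Gata5, Gata6 and Zfpm2 TPK replicate 1 lay above both TPM libraries and TPK replicate 2 within or below their range.

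The third comparison set TPK against the mean of TPMCa and TPMR1, and shares the latter libraries with the first. Gata3 was higher in TPK by 4.19 (SE 0.69, edgeR adjusted p = 0.0122), in both TPK libraries over all 4 others. It was again the only one of the 7 members called, where 10.3% of all genes were called higher and 4.06% lower. Gata1, among the 7, again had no independent test. The call on Gata3 was lost when either TPK library was left out, which leaves 1 library in that model. With any 1 library left out, the Gata3 difference stayed between 3.83 and 5.08. Zfpm2 was at -2.48 (SE 1.42, edgeR adjusted p = 0.276) and Gata6 at -1.83 (SE 1.54, edgeR adjusted p = 0.455), with overlapping libraries. DESeq2 called Gata3 alone of the 7 members and 26.6% of genes, and the study's thresholds passed Gata3 and Zfpm2 and 22.9% of genes. Gata3 was the 1 member of 7 whose groups did not overlap, as held for 40.8% of genes.

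The fourth comparison set TPMR1 against TPMCa. Gata4 and Gata1 are described here without a test, since Gata4 had been chosen by its counts in libraries that include these and Gata1 passed the filter only through TPMR1. Both were higher in the TPMR1 libraries without overlap, Gata4 by a fitted 4.27 on the log2 scale (SE 0.49) and Gata1 by at least 18.4-fold. No gene passed the edgeR test (0% higher and 0% lower), although 1867 had an unadjusted p under 0.05. DESeq2 called 5.03% of all genes and none of the other 6 members. Gata5, which passed the filter through TPMR1 and TPK, was at 3.39 (SE 1.67) and Gata3 at -1.95 (SE 0.86), with edgeR adjusted p = 0.474 and 0.444, and the study's thresholds passed these 2 of the 6 and 11.7% of genes. Groups did not overlap for 3 of the 6, Gata5 and Zfpm1 higher and Gata3 lower in TPMR1, against 36.5% of all genes. Gata6 and Zfpm2 changed sign with the library kept: without TPMR1 replicate 2 they were at -3.61 and -2.77, and with both libraries at 0.94 (SE 1.63) and 1.14 (SE 1.45).

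**Figure D3:**
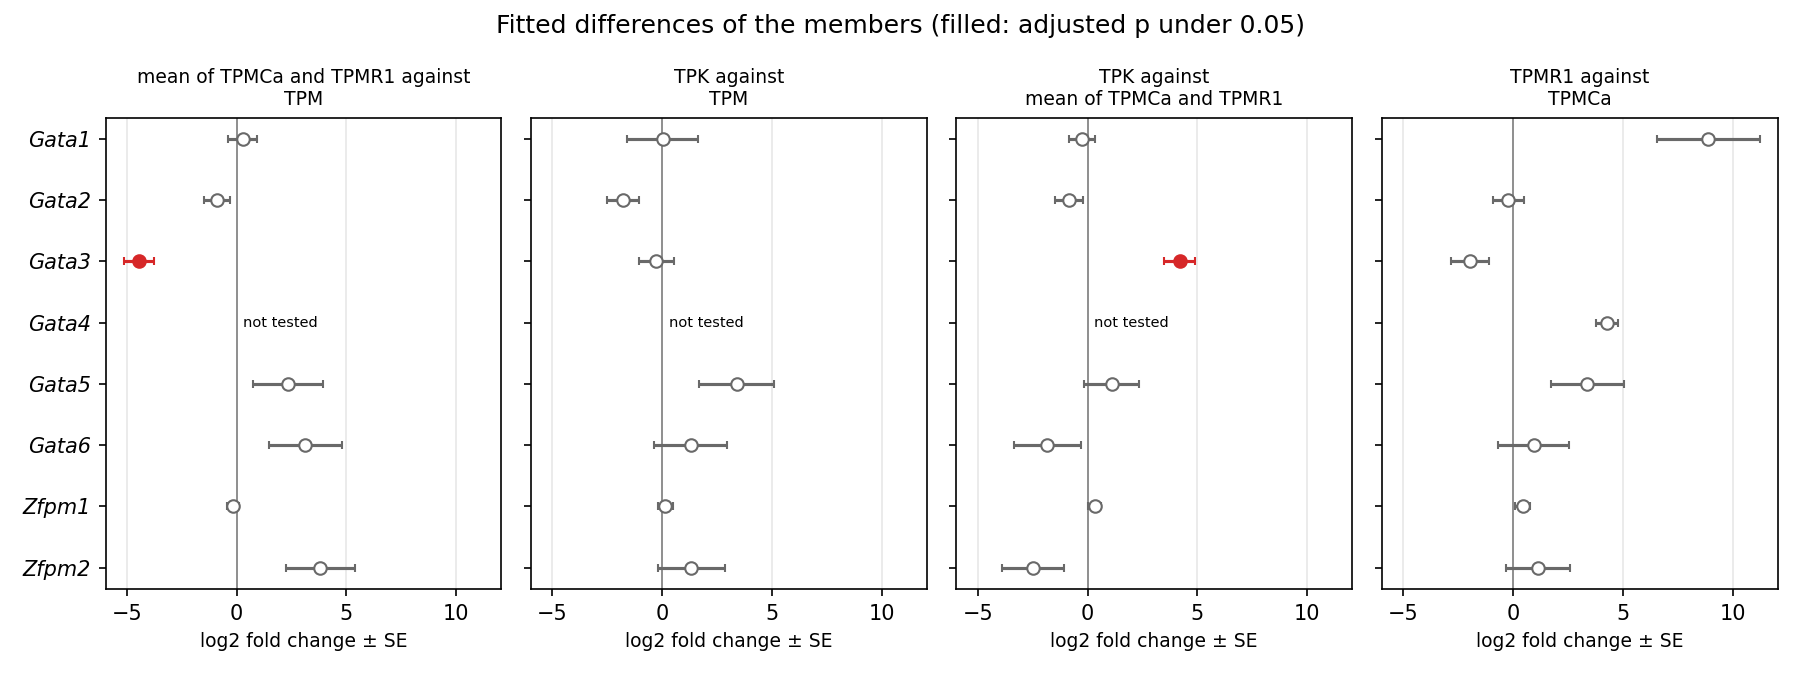
Fitted log2 fold changes of the members in the 4 comparisons, with bars of 1 SE from edgeR and filled points for an adjusted p under 0.05. Filled points are seen for Gata3 alone, at -4.46 and 4.19, and the widest bars are those of Gata1, Gata5, Gata6 and Zfpm2. In TPMR1 against TPMCa the points of Gata4 and Gata1 are fitted values given as a description only, as are those of Gata1 in the comparisons with the mean of TPMCa and TPMR1.

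Most genes around GATA3 in epithelium (13 genes: Trp63, keratins, the Tfap2 factors and others) moved with Gata3. In the mean of TPMCa and TPMR1, edgeR called 11 of 13 lower and none higher than TPM, against 7.44% and 1.45% of all tested genes. The median log2 fold change was -7.86, or -6.26 with the 4 genes that had a model at 0 set to their bound, beside 0.02 over all genes. Of the 13 differences 12 were negative. Esr1, named after its values were seen, was the 1 positive (0.82, SE 0.51). It stood at 141.6 and 132.5 CPM in TPMR1, 18.18 and 56.15 CPM in TPMCa and 30.1 and 50.97 CPM in TPM. Krt5 and Krt14, the keratin pair of basal epithelial cells, went from 1281 to 5720 CPM and from 1539 to 5380 CPM in TPM to 0.890 CPM or less and 5.57 CPM or less. Tfap2c, a factor of surface ectoderm and breast, went from 25.4 and 31.2 CPM in TPM to at most 0.507 CPM. In TPK against the same mean, 12 of 13 were called higher, against 10.3% of all genes. Among them was Agr2, a protein of secretory epithelium, at 133.6 and 532.7 CPM against 0 in all 4 other libraries. The 6 epithelial markers fell too, 6 of 6, at a median of -7.15, and their part in the Gata3 difference was not tested. The lymphocyte genes linked to GATA3 had 0 of 8 tested members called in any comparison by edgeR. DESeq2 called 0 to 1 of the 15 listed, against 1.57 to 26.6% of all genes over the comparisons.

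Among partners of GATA4, the 14 listed transcription factors and coactivators, 9 passed the filter. Mef2c, a muscle and endothelial factor, rose by 2.72 (SE 0.44, edgeR adjusted p = 0.0135) in the mean of TPMCa and TPMR1 over TPM. It stood at 53.5 and 118.4 CPM in TPMCa and 133.9 and 120.4 CPM in TPMR1, against 12.2 to 21.0 CPM in the other libraries. Nr5a1, the master factor of steroid-making cells, rose by 6.92 (SE 1.47, edgeR adjusted p = 0.0358) from 0.181 and 0.400 CPM in TPM. It needed the TPMR1 libraries to pass the filter, so its call was no independent test. It was at 0.507 and 5.23 CPM in TPMCa and at 752.9 and 148.2 CPM in TPMR1, where Gata4 had been at 137.2 and 183.3 CPM. The higher replicate for Nr5a1 was thus the lower one for Gata4. Both genes were lower in TPK than in that mean (Mef2c by -2.53 and Nr5a1 by -8.50, edgeR adjusted p = 0.0135 and 0.0212). The list as a whole had 9 of 9 positive differences in the first comparison, 2 of them called, with a median of 1.26. Over all genes, 1.45% were called higher there and the median was 0.02.

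The gonadal and adrenal genes linked to GATA4 and GATA6 gave 1 call of 16 tested in the first comparison, where 1.45% of all genes were called higher. It was that of Nr5a1, already given among the partners of GATA4. Cyp11a1, the enzyme that opens steroid synthesis, stood at 3768 and 181.6 CPM in TPMR1 and at 8.46 CPM or less elsewhere (8.73 on the log2 scale against TPMCa, SE 2.38, edgeR adjusted p = 0.372, DESeq2 adjusted p = 2.67e-05). In TPMR1 against TPMCa, 11 of the 16 had a positive difference with a median of 3.23, while the median over all genes was 0.01. Among them Nr0b1, named after its values were seen, stood at 33.7 and 2.67 CPM in TPMR1 and 0.111 CPM or less elsewhere. It passed the filter only through TPMR1, and Nr5a1 also needed the TPMR1 libraries to pass. Their higher levels in TPMR1 were thus no independent test, though both enter these counts. Of the 16, 8 were higher and 1 lower without overlap, and none was called by edgeR. DESeq2, run without that filter, called 6 of the 20 listed genes. Over all genes, 36.5% did not overlap and DESeq2 called 5.03%. Fst, which codes for the activin binder follistatin, was higher in TPK than in the mean of TPMCa and TPMR1 by 3.36 (SE 0.56, edgeR adjusted p = 0.0129). Markers of theca and Leydig cells summed to 4359 and 306.2 CPM in TPMR1 and to 7.98 to 20.0 CPM in the other 6 libraries. Those of the adrenal cortex summed to 3918 and 268.4 CPM in TPMR1 and to 43.8 to 129.4 CPM elsewhere, with Cyp11b2 at or under the floor in every library. In TPMR1 replicate 1 the largest part was Cyp21a1 at 2274 CPM, which was at 0 in replicate 2, as were Cyp11b1 and Mc2r. The adrenal sum of replicate 2 was mostly Nr5a1 (148.2 CPM) and Scarb1 (99.2 CPM). Star counts in both the adrenal and the theca and Leydig sum. Granulosa markers summed to 38.5 CPM in TPMR1 replicate 1 and 185.5 CPM in replicate 2, against 17.7 to 71.4 CPM in the other 6 libraries, with Fshr and Cyp19a1 at or under the floor throughout. The TPMR1 libraries were thus the 2 highest for the theca and Leydig sum and the adrenal sum, as for Gata4. Between them the theca and Leydig sum was 14.2-fold higher in replicate 1, while the granulosa sum and Gata4 (1.34-fold) were higher in replicate 2. The part of such cells in the Gata4 levels was not tested.

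**Figure D4:**
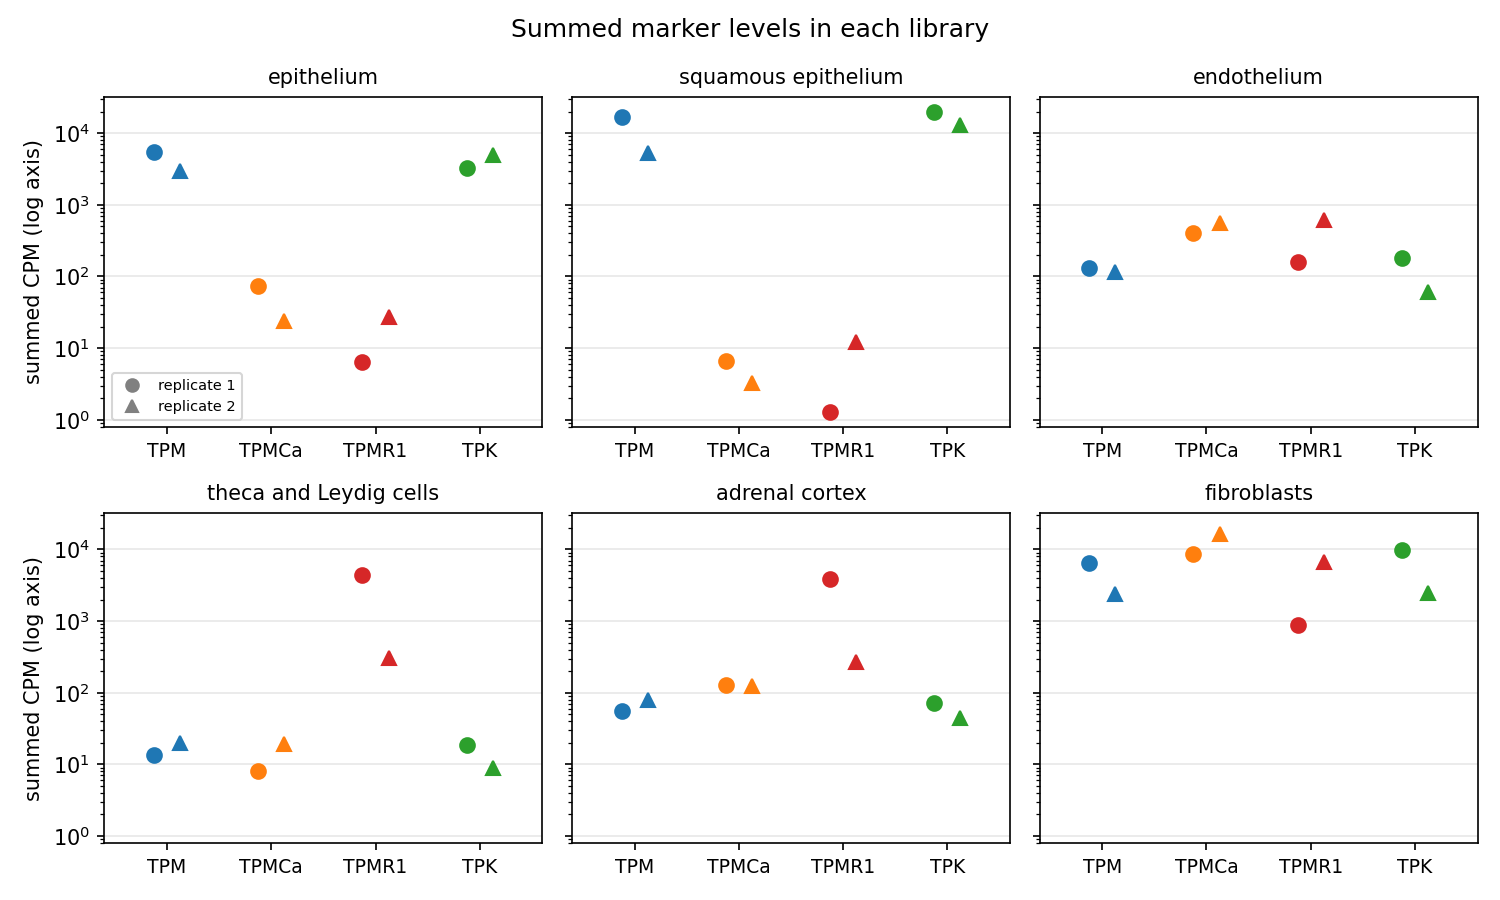
Summed CPM of 6 marker lists in each library on a log axis, by model, with 1 point per library. Epithelial and squamous sums are high in TPM and TPK, theca and Leydig sums reach 4359 and 306.2 CPM in TPMR1, and endothelial and fibroblast sums separate the replicates of TPMR1.

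Endoderm genes were split. In the first comparison Lamb1, a laminin chain, was the 1 gene called higher of 13 tested, and 3 were called lower, among them Foxa2, a factor of gut and uterine gland epithelium, and Cldn2, a tight junction protein. Over all genes, 1.45% were called higher and 7.44% lower. Foxa2 stood at 5.60 and 6.18 CPM in TPM against 0.253 CPM or less. Foxa2, Cldn2 and Afp were called higher in TPK than in the mean of TPMCa and TPMR1, with Lamb1 lower, Lamb1 and Afp being named after their values were seen. Over all genes, 10.3% were called higher and 4.06% lower there. Afp was low throughout, at 0.229 and 1.85 CPM in TPK, 0.127 CPM or less in TPMCa and TPMR1 and 0.421 and 0.572 CPM in TPM. Of 8 cardiac genes none was called in any comparison by edgeR. DESeq2 called 0 to 2, against 1.57 to 26.6% of all genes over the comparisons. Tnnt2, cardiac troponin T, was at 32.7 CPM in TPMR1 replicate 2 but 0.271 CPM in replicate 1. Cardiomyocyte markers summed to 55.5 CPM at most.

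Of the genes linked to GATA2, 12 endothelial ones had 11 positive differences in the first comparison with a median of 1.79, but none was called by edgeR and 8 were by DESeq2. In the same comparison DESeq2 called 18.4% of all genes. Pecam1, an endothelial adhesion protein, was at 129.3 and 161.4 CPM in TPMCa and 46.1 and 198.7 CPM in TPMR1, against 21.8 to 58.4 CPM in TPM and TPK. Flt4, a VEGF receptor of lymphatic vessels, was lower in TPK than in the mean of TPMCa and TPMR1 by -1.95 (SE 0.42, edgeR adjusted p = 0.0270). The endothelial marker sum was 159.1 CPM in TPMR1 replicate 1 and 611.4 CPM in replicate 2, and 179.6 and 60.0 CPM in the TPK replicates, beside 131.5 and 116.2 CPM in TPM and 403.1 and 549.8 CPM in TPMCa. The fibroblast sum was higher in the same replicate of each model, at 875.9 and 6582 CPM in TPMR1, 9921 and 2443 CPM in TPK, 6370 and 2407 CPM in TPM and 8509 and 16600 CPM in TPMCa. Gata6 was higher in the replicate with the higher sums in all 4 models. Zfpm2 and Gata2 were higher in that replicate in TPMR1 and TPK and lower in it in TPM and TPMCa. The part of either cell type in the Gata6, Zfpm2 and Gata2 levels was not tested. Among 12 tested genes of the uterine progesterone response, Fkbp5, an immunophilin induced by steroids, was the 1 gene called by edgeR in any comparison. It was lower in TPK than in the mean of TPMCa and TPMR1 by -3.24 (SE 0.67, edgeR adjusted p = 0.0249). For Flt4 and Fkbp5 alike, the share of all genes called there was 10.3% higher and 4.06% lower.

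Of 26 blood lineage genes linked to GATA1, GATA2 and FOG1, 16 were tested. Kit, the stem cell factor receptor, was the 1 gene called by edgeR in any comparison. It was lower in TPK than in the mean of TPMCa and TPMR1 by -1.84 (SE 0.40, edgeR adjusted p = 0.0296). In that comparison edgeR called 10.3% of all genes higher and 4.06% lower. In TPMR1, where Gata1 was above the floor, mast cell markers summed to 0.0387 and 0.723 CPM, megakaryocyte markers to 11.5 and 31.7 CPM and red cell markers to 7.86 and 4.06 CPM, replicate 1 being given first and having the higher Gata1. The mast cell and megakaryocyte sums were the lowest of the 8 libraries, whose highest values were 115.1 and 462.1 CPM, while the red cell sums, mostly Alas2, lay within the 2.12 to 63.6 CPM of the other libraries. The megakaryocyte sum was mostly Ppbp in TPM and TPK, at 25.3 to 431.1 CPM, against 0.0774 and 1.78 CPM in TPMR1. Its other genes were not all lowest in TPMR1. Pf4 was at 2.25 and 21.6 CPM against 1.77 to 70.0 CPM elsewhere. Gp1ba was at 2.63 and 2.22 CPM against 0.542 to 2.45 CPM, and Itga2b at 6.51 and 5.89 CPM against 5.23 to 9.51 CPM. Gp1ba and Itga2b were named after their values were seen. Klf1, a red cell factor, and Epx, the eosinophil peroxidase, both named after their values were seen, had their highest levels in TPMR1 replicate 1, at 3.21 and 2.32 CPM, against 1.43 CPM or less and 0.0633 CPM or less elsewhere. The part of such cells in the Gata1 levels was not tested. The hemoglobin genes Hbb-bs, Hbb-bt, Hba-a1 and Hba-a2 were listed at 0 in every library. The 14 corepressor genes that FOG proteins recruit and the 9 other proteins with a GATA-type finger had no gene called by edgeR in any comparison. Mta1, Mta2, Mta3, Gatad2a and Gatad2b are in both lists. Chd4, the NuRD helicase, was at 342.7 to 501.6 CPM and Mta2 at 161.8 to 252.1 CPM. DESeq2 called 0 to 5 of the corepressors and 0 to 3 of the GATA-type finger genes, against 1.57 to 26.6% of all genes over the comparisons.

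Across the 8 libraries, the members most alike were Gata6 and Zfpm2, with Pearson's r of 0.92 and Spearman's rho of 0.83 on log2 CPM. Without TPMR1 replicate 2 and TPK replicate 2, the libraries farthest from the median of Gata6, r was 0.81 over 6 libraries. The values of a library share its depth and cell makeup, and the libraries come in 4 models, so this is a description only. By the same measure, Eng, Chst1, Srsf9, Ace and Adcy4 were most like Gata6 among 12830 genes (r of 0.967 to 0.983), Eng and Ace being proteins of the endothelial surface. Kif2c, Ska2, Nono, Raly and Hic1 were most like Zfpm2 (r of 0.960 to 0.977). Acsl1, Pnpla3, Pvrl4, Dennd2d and Mfsd7a were most like Gata3 (r of 0.985 to 0.992), with Acsl1 and Pnpla3 acting in fatty acid and triglyceride metabolism. Zcchc8, Plxnd1, Yaf2, Tceal1 and Apba3 were most like Gata4 (r of 0.964 to 0.974), Plxnd1, a semaphorin receptor, running from 55.0 CPM in TPM replicate 2 to 343.5 CPM in TPMR1 replicate 1. For Gata1, whose pattern rests on 1 library, Arhgef17, Ywhag, Nars2, Lama1 and Gsta2 came first (r of 0.953 to 0.973), and for Gata2 Tfap4, Polr1b, Dtwd1, AK010878 and Pusl1 (r of 0.930 to 0.960). Gata5 had no gene over r = 0.925, the nearest being Cbx8, Ube2m, Emc10, Plxna4 and Pnmal2. Those most like Zfpm1 were Efr3a, Zfp950, Kantr, Eml6 and Atat1 (r of 0.937 to 0.964).

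**Figure D5:**
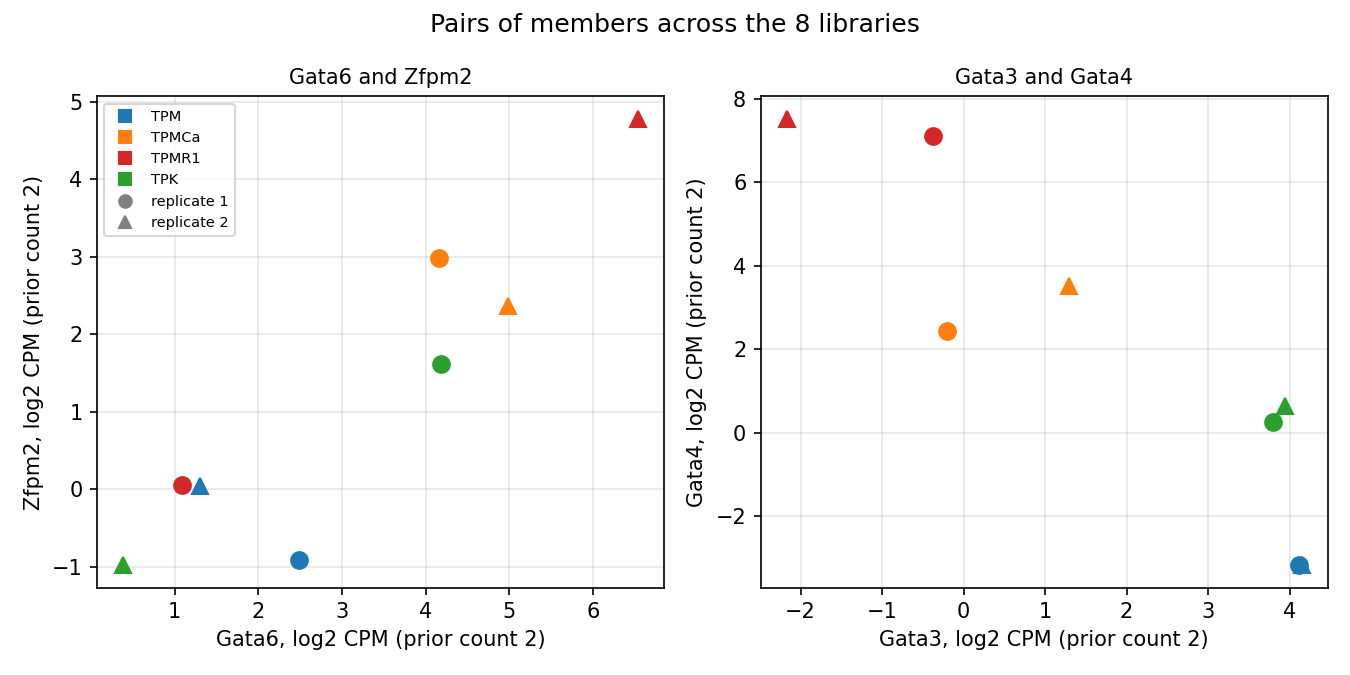
Log2 CPM with a prior count of 2 of Zfpm2 against Gata6 and of Gata4 against Gata3, 1 point per library, colored by model. The points for Gata6 and Zfpm2 run upward with TPMR1 replicate 2 at the top, and those for Gata3 and Gata4 run from high Gata3 and low Gata4 in TPM, through TPK and TPMCa, to low Gata3 and high Gata4 in TPMR1.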

How the data were processed

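Poly(A) RNA of 8 libraries (4 models, 2 libraries each) was analyzed, with model and replicate taken from the sample labels, where the column headings give TPM as TPMS. The deposited counts are whole numbers of reads per gene symbol, made by the authors from reads aligned to mm10 with STAR. The counter, its annotation and its use of strand are not given in the sources used here. Of the 24419 symbols, 25 had become dates and 4109 had 0 counts in every library. A second deposited table, of counts divided by size factors, was not used. Total counts were 15748396 to 26943611 per library, with a median of 16636836.5.

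Counts were normalized by TMM and filtered by filterByExpr in edgeR 4.0.16 (R 4.3.3, limma 3.58.1), leaving 15875 genes. The 8 libraries entered a single quasi-likelihood fit by model, and p-values were adjusted over all genes tested by Benjamini-Hochberg with a threshold of 0.05. CPM used TMM library sizes, log2 CPM a prior count of 2, and CPM per kb the exon union of GENCODE M21 (GRCm38), from which loci and finger sequences were also taken. A level against a model at 0 is a bound against 3 counts in each of its libraries. With 2 libraries per model an exact permutation test of 1 gene cannot reach 0.05 and was not run. The fit was tested on simulated data. Alternatives were DESeq2 1.42.0, other size factors and filters, fits of only the models compared, a replicate term, pooled PI3K models and leaving out each library.

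The members, gene lists and tests were chosen with earlier results of these data known. Genes named from a list are its 2 of highest mean CPM and up to 3 called genes with the largest difference per comparison. The genes named as most alike are the 5 with the highest Pearson correlation of log2 CPM over the 8 libraries, among those with a mean log2 CPM of at least 1. The marker lists not described in the report (smooth muscle, macrophages, neutrophils, eosinophils, T and innate lymphoid cells, mesothelium, uterine stroma and hepatocytes) were summed in the same way. Results on some genes are not reported here.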

Additional observations from a re-analysis of the deposited data

How the results depend on the processing

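Of the 4 counts of members called (1, 0, 1 and 0 in the order of the report), the PI3K models here being the mean of TPMCa and TPMR1, DESeq2 gave 2 in the first comparison and 2 in TPMR1 against TPMCa, and the study's thresholds gave 3, 1, 2 and 4. The counts in TPMR1 against TPMCa include Gata4 and Gata1, which had no independent test there. Gata1 had none in the comparisons with the mean of TPMCa and TPMR1 either. Leaving out 1 library gave 0 to 2 members in the first comparison, 0 to 1 in TPK against the PI3K models and 0 to 1 in TPMR1 against TPMCa. The calls lost were those of Gata3 without either TPM library (first comparison) or either TPK library (TPK against the PI3K models), which leave 1 library in that model with its spread taken from the others. Over all its alternatives Gata3 stayed between -5.34 and -4.10 and between 3.83 and 5.08. Some differences, either of low or split genes or near 0, turned sign when 1 library was left out. Against TPM, the PI3K models ran from -0.72 to 4.46 for Gata1. In TPK against TPM, Gata1 ran from -0.96 to 4.19, Gata6 from -1.73 to 2.21, Zfpm1 from -0.09 to 0.35 and Zfpm2 from -0.75 to 2.14. In TPK against the PI3K models, Gata1 ran from -1.05 to 0.65, Gata5 from -2.17 to 2.02 and Gata6 from -4.85 to 0.45. In TPMR1 against TPMCa, Gata2 ran from -0.63 to 0.10, Gata6 from -3.61 to 1.92 and Zfpm2 from -2.77 to 2.09. Gata1 in TPK against TPM (0.02) was also -0.03 with DESeq2, -0.01 with its size factors in edgeR and -0.07 with library size alone. The cause was not tested.

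Over all genes, 1411 were called in the first comparison and 2287 in TPK against the PI3K models, 3091 and 4470 with DESeq2, 899 and 1451 in fits of only the models compared, and 455 to 2061 and 541 to 3108 with 1 library left out. In TPMR1 against TPMCa, 0 genes were called by edgeR, 806 by DESeq2 and up to 1379 with 1 library left out. Replicate numbers are shared by label only, and same-numbered libraries did not deviate together (correlations of -0.07 to -0.01). With the replicate block 1 member was called in the first comparison, 1 in TPK against the PI3K models and 0 in the others, with Gata3 at adjusted p = 0.0282 and 0.0273. With a prior count of 0.5, 2 of the 5 genes most like Gata4 remained. With 2 libraries per model, a difference such as that of Gata6 cannot be told apart from the spread between its replicates.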
